A study of Bos taurus with 8 samples.

Results

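Glial cells were the rarest of the cell types that were found both in fresh bovine muscle and in its early cultures, and they comprised 60 of the 36129 cells that passed the authors' quality control. Their members were taken from the deposited cell type label, as the cells called glial cells directly after isolation ("Muscle", 12 of 4395 cells) and after 72 h of culture (passage 0, "P0", 48 of 9591 cells). None of the 8966 cells at passage 2, the 10405 cells at passage 5 or the 2772 cells at passage 8 carried the label. By passage 2 the cultures of some donors had been sorted into satellite cells (SCs) or fibro-adipogenic progenitors (FAPs), while others stayed unsorted. SCs and FAPs were also the only labels used at these passages. The lack of the label there does not show that glial cells were gone. The 12 muscle cells came from 6 of 10 donors and the 48 P0 cells from 9 of 9 donors.

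The study followed cells of Belgian Blue cattle from semitendinosus muscle into long-term culture, and each of its 5 timepoints was 1 10x Genomics 3′ library in which the donors had been pooled and then told apart by genotype. The muscle library held 5 calves and 5 adults, and the P0 library held 5 calves and 4 adults, since donor 3 was present in muscle alone. No animal was treated or genetically modified, and the muscle cells were unsorted cells from an enzymatic digest. The P0 cells were unsorted cells kept in serum-free growth medium on fibronectin, although the sample record of that timepoint names SCs and FAPs beside unsorted cells. With 1 library per timepoint, muscle against P0 and library against library cannot be told apart, so p-values below measure the spread between donors within these 2 libraries only. Where a donor gave 1 glial cell, that spread includes differences between single cells.

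Muscle glia are mostly Schwann cells, the cells that ensheathe the motor and sensory axons running through the tissue, together with the terminal Schwann cells that cap the neuromuscular junction. Myelinating Schwann cells wrap single large axons and express myelin proteins under SOX10, EGR2 and POU3F1, whereas non-myelinating cells bundle small axons and express NGFR, NCAM1 and L1CAM. When axon contact is lost, Schwann cells are known to shut down myelin genes and take on a repair programme that depends on JUN, and in culture without axons they behave in a similar way.

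The labelled cells were described by S100B, a calcium-binding protein of Schwann cells, and SOX10, the transcription factor that specifies neural crest glia. A SOX10 UMI (a unique transcript molecule) was found in 8 of 12 muscle and 26 of 48 P0 glial cells, whereas 0 of 4383 other muscle cells had one, which allows up to 0.08% of cells with a detected UMI (exact 95% binomial upper bound), as did 6 of 9543 other P0 cells. S100B was less particular. It was found in 10 of 12 muscle and 32 of 48 P0 glial cells, but also in 27.9% of the other muscle cells and 31.7% of the other P0 cells. The level of S100B in muscle VECs was 527 CPM (the UMIs of the pooled cells scaled to a common total) and that in muscle SCs was 397 CPM, against 1074 CPM in muscle glial cells. At an equal depth of 1000 UMIs per cell, S100B was seen in 57.8% of glial and 14.4% of other muscle cells, and in 17.3% of glial and 2.67% of other P0 cells. Either marker was seen in 11 of 12 muscle and 38 of 48 P0 glial cells. The label was made from the same RNA, so these shares describe the labelled cells and are no independent check of the label. Median depth was 2425 UMIs in muscle and 6805 UMIs in P0 glial cells, so a missing UMI in 1 cell says little.

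Markers of most other cell types were near 0. The markers of SCs, which are the myogenic stem cells, gave 0 UMIs in muscle glial cells and 7 UMIs at P0, and PAX7, MYF5 and MYOD1 were at 0 in both. The leukocyte gene PTPRC and the endothelial gene PECAM1 were also at 0 in both, as were the pericyte gene RGS5 and the neuronal genes SNAP25, ELAVL3 and ELAVL4. The lists of 8 endothelial, 8 SMMC and 8 monocyte genes gave 3, 2 and 2 UMIs in muscle glial cells and 19, 14 and 2 UMIs at P0. The 8 genes of perineurium, the sheath around nerve fascicles, gave 23 UMIs in muscle and 33 UMIs at P0. Their summed level was 574 CPM in muscle glial cells against 133 CPM in the other muscle cells, and 80.0 CPM against 46.0 CPM at P0, and their part in the results below was not tested. The single muscle cell of donor 6 held 17 of the 23 UMIs, and the muscle level was 177 CPM without it. Of the melanocyte genes only MITF with 5 UMIs and DCT with 6 UMIs were seen, both at P0. FAP markers were present too. FAPs are the fibro-adipogenic progenitors of the stroma, and their 8 markers, which include the matrix genes DCN and COL3A1, held 0 to 1.43% of the UMIs of a muscle glial cell (median 0.313%) and 0.009 to 0.668% at P0 (median 0.095%), against a median of 4.55% in muscle FAPs and 0.585% in P0 FAPs. PDGFRA, the receptor that defines FAPs, was at 0 in muscle glial cells. Muscle-fibre genes gave 22 UMIs in muscle glial cells, 18 of them in donor 1, and 0 UMIs at P0.

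Across libraries, 7 cell barcodes occurred in both the muscle and the P0 library, and 0 of them belonged to a glial cell. Median depth over all cells was 4184 UMIs in muscle and 19375 UMIs at P0. The pooled glial cells held 40040 UMIs in muscle and 412491 UMIs at P0, so that a gene with 0 UMIs could have been present at up to 74.9 CPM in muscle but only up to 7.27 CPM at P0. All intervals below cover counting error only.

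Glial cells were a minor population in every donor. In muscle they made up between 0 and 0.803% of the cells of a donor, and at P0 between 0.157% and 0.917%. The mean share of the 9 donors present at both times was 0.306% ± 0.305 (SD, n = 9) in muscle and 0.529% ± 0.261 (SD, n = 9) at P0. The difference of 0.224 ± 0.375 percentage points did not pass an exact 2-sided sign-flip test over donors (p = 0.117, adjusted p = 0.176 over 3 tests), and it was positive in 5 of 9 donors. Among the cells that were neither FAPs nor SCs, however, the glial share was higher at P0 in 9 of 9 donors, by 2.94 ± 1.76 percentage points (exact sign-flip p = 0.00391, the smallest that 9 donors allow, adjusted p = 0.0117). The groups overlapped on this scale by 1 donor, as donor 4 at P0 (1.33%) lay below donor 1 in muscle (1.37%). A share is relative to the other cells counted, and the number of glial cells per gram of muscle was not measured.

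**Figure D1:**
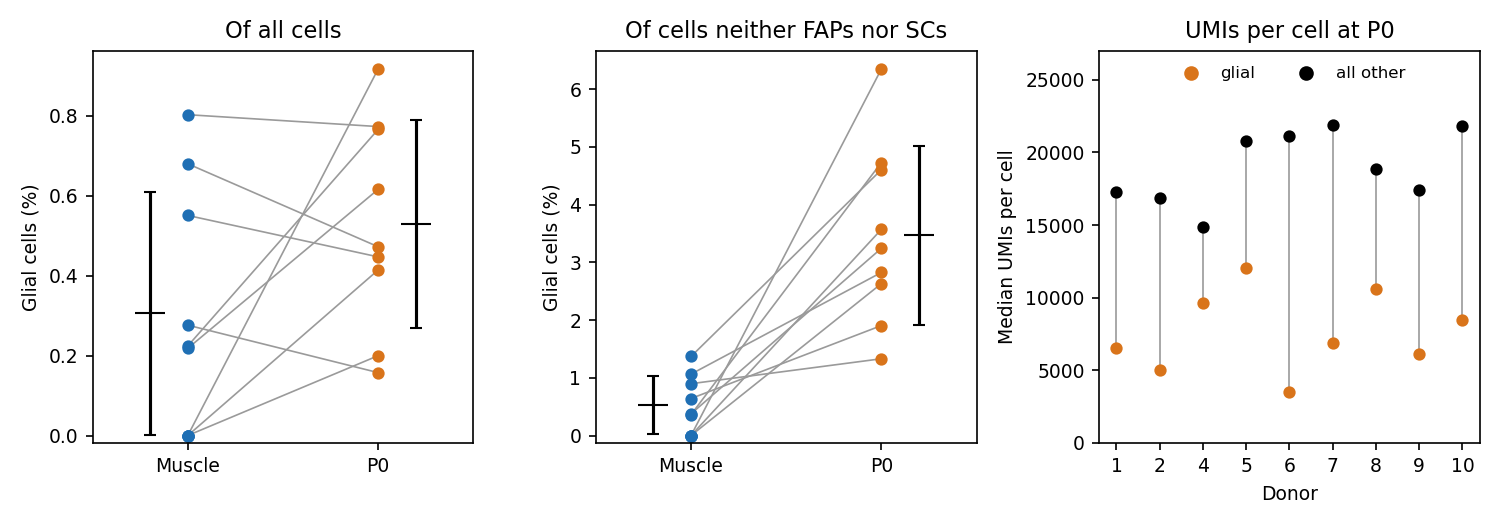
Glial cells of each donor as a percentage of all cells (left) and of the cells that were neither FAPs nor SCs (middle) in muscle (blue, 10 donors) and at P0 (orange, 9 donors), with grey lines joining the same donor and black bars giving the mean and SD of the 9 shared donors. The right panel gives the median UMIs per cell at P0 for glial (orange) and all other cells (black), and the glial median is the lower one in 9 of 9 donors.

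Calves and adults, by the age class that the study's methods give each donor, did not differ detectably in glial share at P0. It was 0.494% ± 0.214 (SD, n = 5) in calves and 0.574% ± 0.340 (SD, n = 4) in adults (exact permutation p = 0.667, adjusted p = 0.667 over 3 tests). With 0 to 8 glial cells per donor, these shares rest on few cells.

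P0 glial cells had fewer UMIs per cell than all other P0 cells pooled. Their median ranged from 3489 UMIs in donor 6 to 12042 UMIs in donor 5, while that of all other cells ranged from 14843 to 21875 UMIs, so the 2 ranges did not overlap. The mean log2 difference was −1.39 ± 0.61 (SD, n = 9), and it was negative in 9 of 9 donors (exact sign-flip p = 0.00391, adjusted p = 0.00391 over 2 tests). The mitochondrial share of UMIs was lower in P0 glial cells as well, by 0.643 ± 0.394 percentage points (SD, n = 9), again in 9 of 9 donors (exact sign-flip p = 0.00391, adjusted p = 0.00391). The pooled cells are mostly FAPs and SCs, and the median mitochondrial share of 2.05% in P0 glial cells lay above 1.43% in VECs and 1.89% in LECs. By UMIs, the nearest P0 types were monocytes/macrophages with a median of 7568 and LECs with 9436, against 6805 in glial cells. In muscle, the median of 2425 UMIs in glial cells stood below 4189 UMIs in all other cells. The median mitochondrial share was higher in muscle glial cells, with 4.53% against 2.94% in all other muscle cells. Only 12 cells in 6 donors were available there, and neither difference was tested.

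The genes with a higher level in P0 glial cells than in all other P0 cells pooled were then listed. The label was made from the same RNA, so this comparison is a description of the labelled cells and carries no test. A gene was listed where its pooled CPM was at least 4-fold that of all other P0 cells, a UMI was seen in at least 50% of the 48 cells, and the level was higher in every donor. Of 1500 genes seen in 50% of the cells, 35 met this rule (2.33%). When cells under 4000 UMIs were left out and the others thinned to that number, 37 glial and 8924 other cells remained and 8 genes met the rule. The effects of fewer cells and of lower depth on that count were not separated. Of the 35 genes, 24 were less than 10-fold higher, and 1, PKIG, was higher in another type, with 245 CPM in glial cells against 627 CPM in VECs and 274 CPM in LECs.

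SOX10 (ENSBTAG00000004822) headed the list. Its P0 level was between 69.5 and 167 CPM over 9 donors (median 111 CPM), and it was higher than in the other cells of the same donor in 9 of 9 donors. The pooled level of the other cells was 0.03 CPM. MAL, a raft protein of compact myelin, followed with 204 CPM against 0.15 CPM. NRCAM, an L1-family adhesion molecule that Schwann cells use at the node of Ranvier, reached 318 CPM against 0.32 CPM and was seen in 33 of 48 cells. Its relative CHL1 stood at 196 CPM against 0.36 CPM in 29 cells, but it was absent in 1 donor and so was not listed.

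Among listed genes with a role in adhesion, ITGB8, an integrin subunit that activates TGF-beta, was 114-fold higher with 238 CPM in 28 of 48 cells. ITGA6, a subunit of the laminin receptors of the Schwann cell basal lamina, reached 502 CPM, which was 27.5-fold the level of all other cells. Of the other P0 types, VECs came closest for ITGA6, with 196 CPM. Among the 16 genes of the basal lamina and its receptors 6 were higher in P0 glial cells, which was below the 58.3% found over all genes with a UMI, and the laminin chains LAMC1, LAMB1 and LAMA4 were lower than in the other cells.

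CRYAB, the small heat shock protein alpha-B-crystallin that peripheral myelin contains, was the most widely detected gene of the list. It was present in 48 of 48 cells, at 2284 to 11753 CPM over 9 donors (median 5930 CPM), against 137 CPM in all other cells. SMMCs, the smooth muscle and mesenchymal cells, had the highest CRYAB level of the other types with 825 CPM. CRYAB was thus present in other cells as well, at a lower level.

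Of secreted factors, CXCL14, a chemokine, was present at 2914 CPM in 36 of 48 cells against 12.9 CPM in all other cells, and its donor values ran from 202 to 7611 CPM (median 1168 CPM). OXT, which encodes the neuropeptide oxytocin and its carrier, reached 2858 CPM in 34 of 48 cells against 1.52 CPM. OXT ranged from 0 CPM in donor 5 to 4351 CPM (median 3151 CPM). The 2 glial cells of donor 5 held neither OXT nor NGFR, although both had a SOX10 UMI. APOD, a lipocalin that Schwann cells make after nerve injury, was 22.3-fold higher with 429 CPM, and the plasminogen activator PLAT was 7.46-fold higher with 213 CPM.

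The remaining listed genes were broader in kind, with ratios of at most 25.5-fold. They included the stress transcription factor ATF3 (325 CPM, 21.7-fold), the myelin enzyme CNP (589 CPM, 9.02-fold), S100B (189 CPM, 8.49-fold), the compact myelin protein PMP22 (754 CPM, 7.03-fold) and JUN (1113 CPM, 5.16-fold). AIF1L and NAV2, which act on the cytoskeleton, were 18.8-fold and 25.5-fold higher. RENBP, FAM162A, CILK1, DDAH2, CTNNAL1, GATM, OAT, HSD17B10 and VAMP5 lay between 5.20-fold and 8.75-fold. GATM makes the precursor of creatine, and OAT and HSD17B10 are mitochondrial enzymes.

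**Figure D2:**
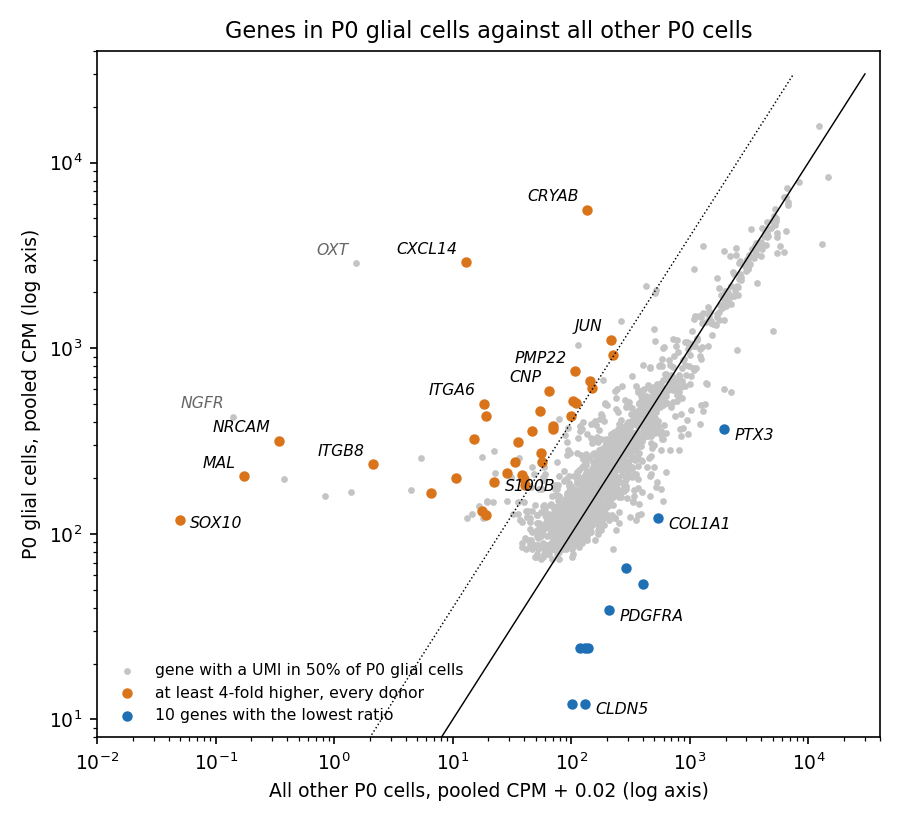
Pooled CPM in the 48 P0 glial cells (y, log axis) against all other P0 cells (x, log axis, with 0.02 CPM added) for genes seen in at least 50% of glial cells and the 10 genes with the lowest ratio, with the solid line at equality and the dotted line at a 4-fold excess. SOX10, MAL and NRCAM (orange, 35 listed genes) lie far to the left because the other cells hold almost none, OXT and NGFR (grey) lie with them but were missing in 1 donor, and the 10 genes with the lowest ratio are blue.

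Of the genes at 100 CPM or more in all other P0 cells, those with the lowest ratios in glial cells are given next. The ratios are against all other cells pooled, and several of these levels were as low in other types. CLDN5, the tight-junction claudin of endothelium, was 10.7-fold lower, with 12.1 CPM in glial cells against 13.1 CPM in FAPs, 9.82 CPM in SCs and 2444 CPM in LECs. The matricellular genes CCN2 and THBS1 were 8.36-fold and 7.52-fold lower. The contractile actin ACTA2, the interferon gene ISG12(B), PDGFRA, SERPINF1 and COL1A1 were 4.41-fold to 5.74-fold lower. PDGFRA, at 38.8 CPM, and SERPINF1, at 24.2 CPM, were above their levels in VECs, LECs and SMMCs. Secreted immune factors PTX3 and IL6 were 5.27-fold and 4.43-fold lower, and PTX3 was still present at 366 CPM in 38 of 48 glial cells, above 249.6 CPM in VECs.

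The genes found at P0 were next looked up in the 12 muscle glial cells. Of the 35 genes, 33 had a UMI there, 29 were higher than in all other muscle cells and 14 were at least 4-fold higher. Over the 1434 genes seen in 50% of P0 glial cells and with a UMI in muscle glial cells, 55.2% were higher and 2.79% at least 4-fold higher. Both labels were made from the same RNA, and the paper named the P0 clusters by comparing them with muscle. Shared markers were thus favoured in advance, and these counts are a description and no independent check. The 14 genes were SOX10, MAL, NRCAM, ITGB8, CRYAB, AIF1L, CNP, S100B, CTNNAL1, PMP22, GATM, TMEM120A, UCHL1 and ENSBTAG00000051082. Of these 14, 3 rest on at most 5 UMIs, namely NRCAM with 2, UCHL1 with 3 and TMEM120A with 5, all of the last in 1 donor. For SOX10 the excess was at least 3312-fold (474 CPM, 0 UMIs in other muscle cells), for CNP 30.3-fold, for PMP22 19.4-fold and for CRYAB 15.8-fold.

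Other P0 genes were not seen in muscle glial cells. CXCL14 had 0 UMIs in them, whereas 30.1% of muscle FAPs and 17.6% of muscle SCs had a CXCL14 UMI. The kinase inhibitor PKIG also had 0 UMIs in muscle glial cells, and the same interval includes its 68.3 CPM in the other muscle cells. ATF3 stood at 275 CPM in muscle glial cells (128 CPM without donor 4) against 337 CPM in the other muscle cells, and FAM162A, DDAH2 and OAT were likewise no higher than in the other cells. Those 3 genes rest on 1, 3 and 4 UMIs in muscle glial cells, and their counting intervals include the level of the other cells. By the same ratio and detection share, without the donor rule, 58 genes marked muscle glial cells and 62 marked P0 glial cells. The 2 groups shared 10 genes, 17.2% of the muscle genes and 16.1% of the P0 genes.

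Myelin genes were among those that marked muscle glial cells. MBP, which compacts the cytoplasmic face of the myelin membrane, reached 4496 CPM in muscle glial cells (8 of 12 cells) against 4.78 CPM in all other muscle cells, and was at 2818 CPM without donor 1. CLDN19, the claudin of Schwann cell tight junctions, was at 949 CPM (619 CPM without donor 1) and FA2H, which makes the hydroxylated lipids of myelin, at 199.8 CPM. POU3F1, the transcription factor that drives promyelinating cells, was found in 10 of 12 cells at 949 CPM, and ERBB3, the neuregulin receptor through which axons control Schwann cell number, was found in 8 of 12 cells at 499.5 CPM. The Wnt antagonists SFRP5 and SFRP1 were present at 2348 and 774 CPM, 1638-fold and 26.2-fold the level of the other muscle cells.

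Members of each gene list were compared with the other cells of their own library, and members without a UMI in the glial cells were counted but given no ratio. As a background, 17.6% of the genes with a UMI in muscle glial cells were at least 4-fold higher there and 70.8% were higher, while at P0 9.12% were at least 4-fold higher and 58.3% were higher. Of the 24 myelin genes, 24 had a UMI in muscle glial cells and 24 were at least 4-fold higher than in all other muscle cells. At P0, 21 of 24 had a UMI, 19 were at least 4-fold higher, and PMP2, PRX and NCMAP were at 0. The median ratio on the log2 scale was 9.45 in muscle, against 0.66 over all genes with a UMI. At P0 it was 7.34 against 0.16, but this median lay at genes with 1 UMI in glial cells and is not a precise ratio. Of the 21 genes, 7 had at most 2 UMIs, and 5 were seen in at least 50% of the P0 glial cells.

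Most genes of non-myelinating and immature Schwann cells with a UMI were at least 4-fold higher than in the other cells as well. Their median log2 ratio was 5.21 in muscle and 5.35 at P0. Of 16 genes, 12 had a UMI in muscle and 12 at P0, and 9 and 11 of them, respectively, were at least 4-fold higher. CDH19, a cadherin of Schwann cell precursors, was seen in 5 of 12 muscle cells at 474.5 CPM and in 21 of 48 P0 cells at 107 CPM, with 0 and 5 UMIs in all other cells of the library. Without donor 7 the muscle level of CDH19 was 229.9 CPM. MATN2, a matrix protein on which axons grow, was present at 549 CPM in muscle and 104 CPM at P0. L1CAM, NCAM1, FABP7 and CDH2 lay between 33.9 and 46.1 CPM at P0.

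Schwann cell transcription factors were counted by gene identifier, with ZEB2 counted under 2. Of 14 identifiers, 8 had a UMI in muscle glial cells, all 8 were higher than in the other muscle cells and 4 were at least 4-fold higher. POU3F1 had 38 UMIs in 10 of 12 muscle cells and 4 UMIs in 3 of 48 P0 cells. ZEB2, which lifts repressors of myelination, is held by 2 gene identifiers in the files, with 70.3 and 24.2 CPM at P0. POU3F2, the relative of POU3F1, had 11 UMIs in 9 of 48 P0 cells and 3 UMIs in 2 of 12 muscle cells. ID2 stood at 549 CPM in muscle and 31.5 CPM at P0. At P0 11 of the 14 had a UMI, and 4 were at least 4-fold higher than in all other P0 cells.

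Receptors and ligands of axon contact were found in both libraries. GFRA1, the co-receptor for GDNF, was at 160.0 CPM in 25 of 48 P0 cells and at 175 CPM in 5 of 12 muscle cells. CADM4, the nectin-like protein that binds axonal CADM3, stood at 155 CPM at P0 and 299.7 CPM in muscle, or 197 CPM without donor 7. GLDN, gliomedin of the node of Ranvier, was at 99.4 CPM at P0 and 99.9 CPM in muscle, where the latter rests on 4 UMIs, 3 of them from donor 8. This list held 22 genes under 24 gene identifiers. Of the 24 identifiers 13 had a UMI at P0 and 14 in muscle, of which 10 and 11 were at least 4-fold higher than in the other cells.

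Of 17 genes of the repair programme, 9 had a UMI in P0 glial cells, of which 6 were higher than in all other P0 cells and 4 at least 4-fold higher. In muscle 5 had a UMI, of which 3 were higher than in the other muscle cells and 1 at least 4-fold higher. JUN and ATF3 were listed at P0, as given above, and RUNX2, a transcription factor of repair cells, was 10.6-fold higher than in all other P0 cells with 99.4 CPM in 22 of 48 cells. TNC, a matrix glycoprotein of injured nerve, stood at 194 CPM against 57.4 CPM. CCL2 and IL6 were lower in P0 glial cells than in all other P0 cells, with 216 against 623 CPM and 65.5 against 289.8 CPM. The trophic factors were scarce, as GDNF had 3 UMIs and BDNF and LIF had 0 UMIs.

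**Figure D3:**
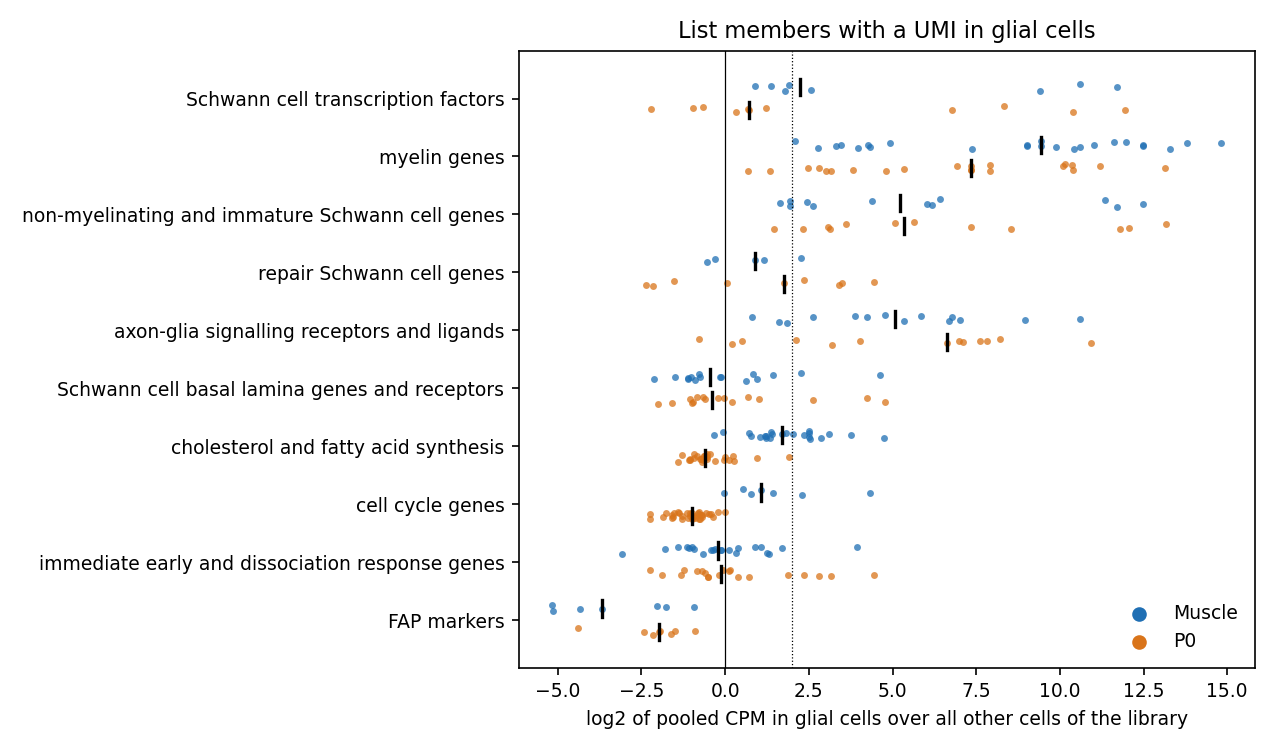
Each point is a gene with a UMI in glial cells, placed by the log2 ratio of its pooled CPM in glial cells to that in all other cells of the same library, in muscle (blue) and at P0 (orange), with black bars at list medians, the solid line at 0 and the dotted line at 4-fold. Myelin genes sit to the right in both libraries (medians 9.45 and 7.34, the latter at genes with 1 UMI), and cholesterol genes lie right of 0 in muscle (median 1.71) but left of it at P0 (median −0.61).

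Cholesterol and fatty acid synthesis, on which myelin membrane depends, differed in its standing between the libraries. In muscle, 23 of 28 genes had a UMI in glial cells, 21 of them were higher than in the other cells and 10 were at least 4-fold higher. SCD, the stearoyl-CoA desaturase, was 26.8-fold higher there with 299.7 CPM in 7 of 12 cells. At P0, 28 of 28 genes had a UMI, and 5 were higher than in the other cells. The summed level of the list was 2872 CPM in muscle and 2175 CPM at P0 in glial cells. In the other cells it was 729 CPM in muscle and 3293 CPM at P0, and the difference in standing was not tested. HMGCS1, an early enzyme of the pathway, stood at 400 CPM in muscle glial cells and 441 CPM in P0 glial cells, whereas in FAPs it stood at 44.9 and 909 CPM. The muscle level of HMGCS1 in glial cells rested on donor 8, with 10 of the 16 UMIs, and was 177 CPM without that donor. The donor medians were 52.1 CPM in muscle and 336 CPM at P0, and the level was higher at P0 in 4 of 6 donors.

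Cell cycle genes were low in P0 glial cells. Of 35 genes, 1 was higher in P0 glial cells than in all other P0 cells, with a median log2 ratio of −0.99. MKI67, the proliferation antigen, had a UMI in 8 of 48 P0 glial cells (16.7%, exact 95% interval 7.48 to 30.2%) and in 63.2% of all other P0 cells. At an equal depth of 1000 UMIs per cell these shares became 4.41% and 13.5%, and the share in P0 VECs was 4.04%. In muscle glial cells 7 of the 35 genes had a UMI and 6 of them were higher than in the other muscle cells, and the summed level of the list was 549 CPM against 597 CPM. MKI67 and TOP2A were at 0 there, which allows up to 74.9 CPM, above their level of 15.7 and 34.2 CPM in the other muscle cells.

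The glial cells were not uniform. The myelin genes other than CRYAB held between 0.229% and 8.09% of the UMIs of a muscle glial cell (median 3.60%) and between 0.0872% and 0.684% of those of a P0 glial cell (median 0.292%). An MBP UMI was present in 8 of 12 muscle cells and in 3 of 48 P0 cells. The single muscle cell of donor 7 had none. It was the deepest of the 12 with 9590 UMIs, had 12 S100B, 7 SOX10 and 12 CDH19 UMIs and only 2 PMP22 UMIs, and had 114 DCN UMIs, the most of any muscle glial cell. A CDH19 UMI was present in 5 of 12 muscle cells, of which 3 came from donor 4.

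At P0, NGFR was seen in 33 of 48 cells, CXCL14 in 36 cells and OXT in 34 cells. Each of the donors other than donor 5 had cells with all 3 genes represented among them. In donor 9, which had 8 glial cells, 7 cells had NGFR, 7 had CXCL14 and 6 had OXT. In donor 5, 1 of 2 cells had CXCL14, and the cell with it held 20642 UMIs while the other held 3441 UMIs.

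The glial cells of muscle and P0 were then compared with each other, over donors. UMIs were summed per donor (6 donors in muscle, 9 at P0). In muscle, donors 2, 6 and 7 gave 1 glial cell each, donors 1 and 8 gave 2 each and donor 4 gave 5. The spread between muscle donors therefore includes that between single cells. Fits with donors of at least 2 glial cells kept donors 1, 4 and 8 in muscle. The sums were fitted in edgeR, and calls required a log2FC beyond 1 in either direction with a false discovery rate under 0.05. These are 2 of the thresholds of the study, whose further condition on the share of cells expressing a gene was not applied. Of 378 genes with enough counts, 72 were called higher (19.0%) and 58 lower (15.3%). The filter required 6 donors at 415 CPM or more. Of the 72 genes, 32 had 0 muscle donors at that level and so passed through P0 alone, and of the 58 genes 7 had 0 P0 donors at it, namely FOS, SFRP5, HSPA1A, EGFL8, TSC22D4, DDX17 and S100B. Genes that passed through 1 group alone had to differ, and their values are given as descriptions without a p. Of the 378 genes tested, the donors did not overlap for 54 that were higher and 16 that were lower. For the 7 that passed through muscle alone the filter fixed this in advance, as all 6 muscle donors lay at 415 CPM or more. It also favoured a lack of overlap for the genes that passed through P0 alone. The median log2FC of all 378 genes was 0.20, and the values below are as fitted and not centred on it. Scaling by library size alone gave 117 higher and 40 lower genes with a median of 0.53.

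Myelin genes fell in culture. Of the 7 myelin genes tested 5 fell (15.3% over all genes tested), 0 rose and 2 were not called, with a median log2FC of −2.32. MAL was between 0 and 1978 CPM in 6 muscle donors (median 765 CPM) and between 67.3 and 430.0 CPM in 9 P0 donors (median 233 CPM). Its log2FC was −2.32 ± 0.51 (SE), and the groups overlapped. At P0 only donor 6, with 430.0 CPM, reached the 415 CPM of the filter. MAL thus passed almost through muscle alone, and no p is given for it. CNP, the myelin enzyme, had a median of 2156 CPM in muscle and 451 CPM at P0 (log2FC −2.21 ± 0.38 (SE), adjusted p = 0.00012). Without the filter on low counts MAL and CNP were not called, with log2FC of −0.95 and −0.81.

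PMP22, the myelin protein whose duplication causes a hereditary neuropathy, was lowest in muscle in donor 7 at 209 CPM, while its median was 8557 CPM there and 738 CPM at P0. Its log2FC was −3.90 ± 0.48 (SE, adjusted p = 8.8e-06). CRYAB and CD9 were not called, with log2FC of 0.35 and −0.90. CRYAB had a median of 3650 CPM in muscle and 5930 CPM at P0, and the donors of the 2 groups overlapped.

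Most myelin genes were too sparse for this fit and were compared by their pooled UMIs, with a counting interval for the ratio of the 2 libraries. For 22 of 24 myelin genes the interval lay wholly below 1, against 8.40% of the 11067 genes with a UMI in glial cells, and for CRYAB alone it lay above 1, against 3.70%. The 8.40% is not a matched background. Only 6689 of the 11067 genes had a UMI in muscle glial cells, without which an interval cannot lie below 1, whereas all 24 myelin genes had one. MBP went from 4496 CPM to 16.97 CPM, a 265-fold difference that was 142-fold without donor 1 and 873-fold without donor 5, which held 5 of the 7 MBP UMIs at P0. BCAS1 went from 974 to 26.7 CPM. The regulator POU3F1 went from 949 CPM to 9.70 CPM, a 97.9-fold difference (38 and 4 UMIs). POU3F1 ranged from 162 to 1936 CPM in the 6 muscle donors and from 0 to 27.4 CPM at P0, so the donors did not overlap.

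Identity genes were lower at P0 but were not lost. S100B ranged from 494 to 1549 CPM in 6 muscle donors (median 1252 CPM) and from 82.0 to 359 CPM in 9 P0 donors (median 143 CPM). The donors did not overlap, and the log2FC was −2.82 ± 0.41 (SE). S100B passed the filter through muscle alone, which fixed this lack of overlap in advance. SOX10 did not pass the filter on low counts. It ranged from 324 to 730 CPM in muscle (median 441 CPM) and from 69.5 to 167 CPM at P0 (median 111 CPM), again without overlap. The muscle values of SOX10 rest on 19 UMIs, and the 627 CPM of donor 2 was 1 UMI, so this lack of overlap is coarse. In all, 7 of 14 gene identifiers of Schwann cell transcription factors and 8 of 24 of axon contact had counting intervals below 1. Over all genes with a UMI the share was 8.40%, a background with the limit given above. ERBB3 went from 499.5 to 26.7 CPM.

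NGFR, the low-affinity neurotrophin receptor that immature and injured Schwann cells express, went the other way. It had 0 UMIs in the 12 muscle cells, and at P0 it ranged from 0 CPM in donor 5 to 860 CPM (median 463 CPM) and was seen in 33 of 48 cells. Its pooled level of 427 CPM at P0 was at least 5.69-fold higher than in muscle. Other P0 cells hardly had it, with 0.12 CPM. NGFR did not pass the filter on low counts, so this change carries no test. Among the repair genes, TNC was at least 2.59-fold and RUNX2 at least 1.33-fold higher at P0, with 0 UMIs in muscle, whereas JUN fell.

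**Figure D4:**
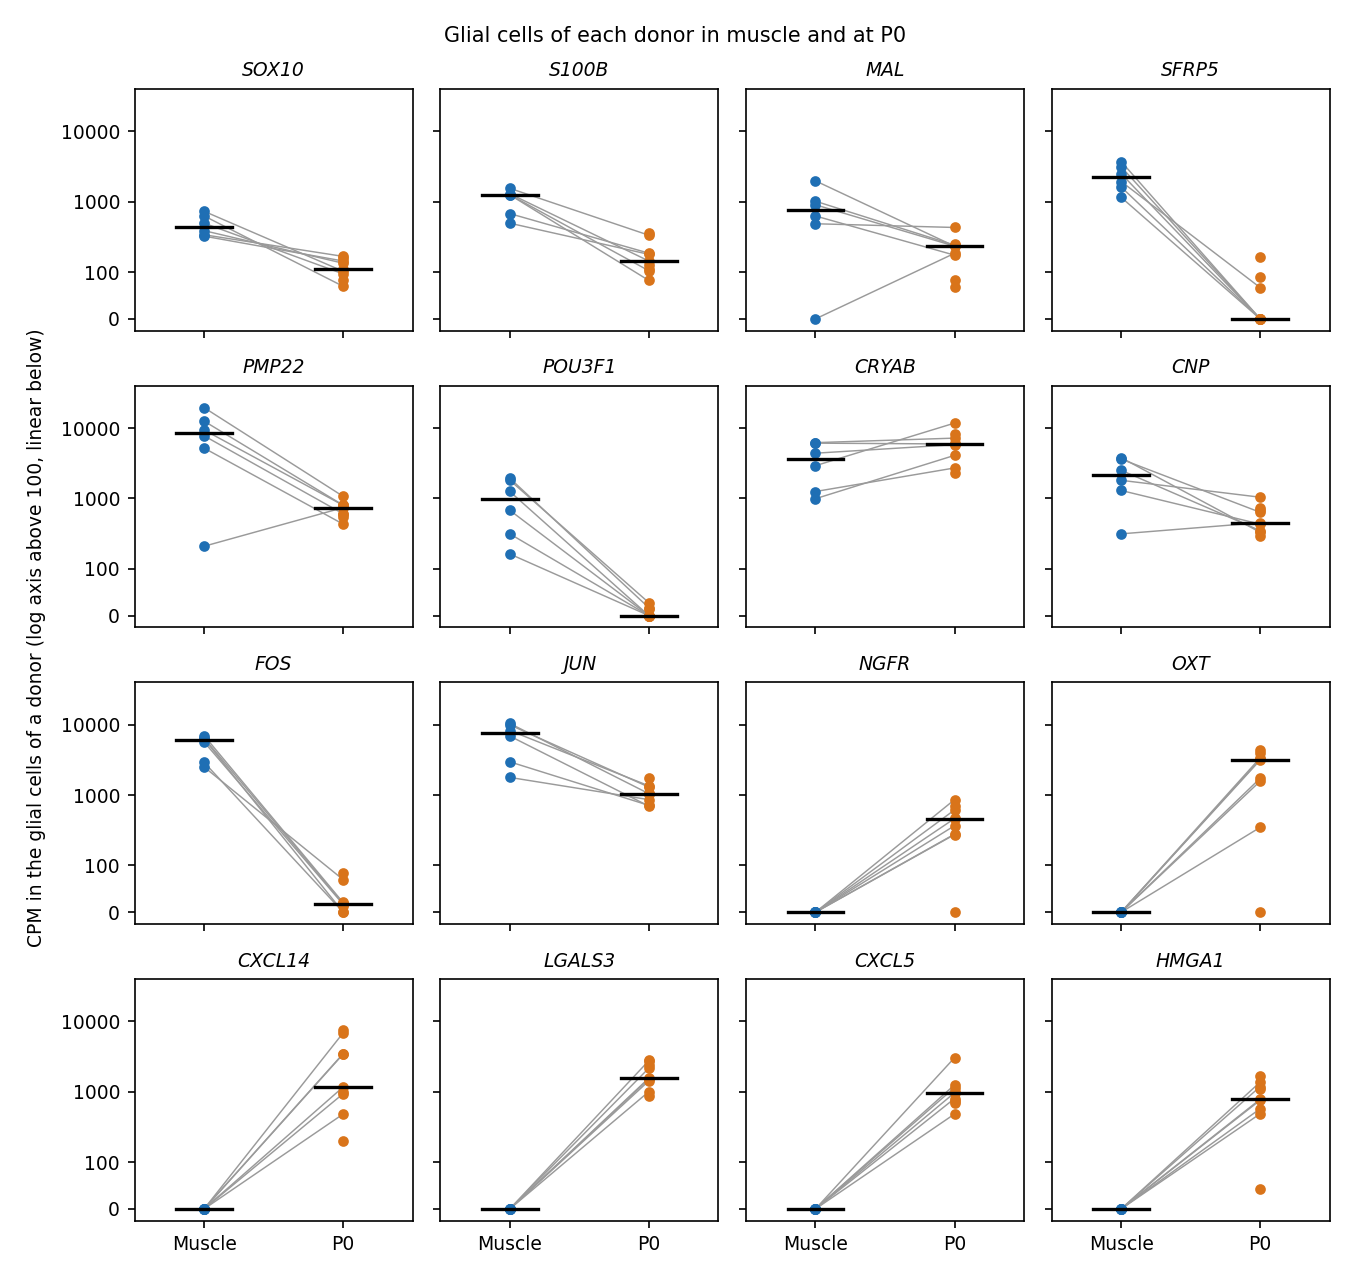
CPM of 16 genes in the glial cells of each donor in muscle (blue, 6 donors) and at P0 (orange, 9 donors) on an axis that is logarithmic above 100 CPM and linear below, with grey lines joining the same donor and black bars at the medians. SOX10, S100B, SFRP5, POU3F1, FOS and JUN are lower at P0 without overlap, PMP22 overlaps through 1 muscle donor, and NGFR, OXT, CXCL14, LGALS3, CXCL5 and HMGA1 are at 0 in every muscle donor. The lack of overlap was fixed by the filter on low counts for S100B, SFRP5 and FOS.

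Immediate early and dissociation response genes were lower as well. These genes are induced within minutes to hours by stress, and enzymatic digestion of tissue is a known trigger. Of 8 tested 6 were called lower (15.3% over all genes tested), 0 higher and 2 were not called, and FOS and HSPA1A among the 6 passed the filter through muscle alone. FOS ranged from 2506 to 6986 CPM in muscle and from 0 to 83.0 CPM at P0 (log2FC −7.98 ± 0.35 (SE)). JUN ranged from 1781 to 10428 CPM in muscle (median 7576 CPM) and from 695 to 1727 CPM at P0 (median 1050 CPM), with a log2FC of −2.95. JUNB, JUND and the heat shock gene HSPB1 fell too, and HSPA1A was lower, although HSPB1 fell by only 1.11 on the log2 scale and had a log2FC of 0.24 without the filter on low counts. JUNB passed almost through muscle alone, as at P0 only donor 5, with 623 CPM, reached the 415 CPM of the filter.

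The other genes with the largest differences were SFRP5, S100A1, EGFL8 and TSC22D4. SFRP5, a secreted Wnt antagonist, ranged from 1154 to 3724 CPM in muscle and from 0 to 166 CPM at P0 (log2FC −6.42 ± 0.55 (SE)). S100A1, a relative of S100B, ranged from 1251 to 6970 CPM in muscle and from 22.4 to 573 CPM at P0. EGFL8 had a log2FC of −4.80 and TSC22D4 one of −4.31. For all 4 genes the donors of the 2 groups did not overlap, which the filter had fixed in advance for SFRP5, EGFL8 and TSC22D4. S100A1 passed almost through muscle alone, as at P0 only donor 6, with 573 CPM, reached the 415 CPM of the filter. The filter thus favoured its lack of overlap as well.

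FAP marker genes in glial cells need care. DCN and COL3A1 both fell, with log2FC of −2.87 and −2.03, and both calls depended on the processing. COL3A1 lost its call without the glial cells rich in FAP markers (−1.65, adjusted p = 0.0577), with donors of at least 2 glial cells (−1.97, adjusted p = 0.0527, so that the fold moved little) and without the filter on low counts (−0.69, adjusted p = 0.226). DCN in muscle ranged from 0 CPM to 11887 CPM in donor 7, whose single cell was the one with 114 DCN UMIs. Without the glial cells in which FAP markers exceeded 0.5% of UMIs, the log2FC of DCN was 0.77 (adjusted p = 0.651), and the fit with donor as a replicate block did not call DCN either (adjusted p = 0.339), nor did the fit without donor 7. In that smaller set, 94 genes were higher and 64 lower of 559 tested.

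Of the 72 genes called higher, 65 had a UMI in muscle glial cells and 7 had 0 UMIs there. These 7 and the genes named after them, apart from MT2A, passed the filter through P0 alone and are described without a p. LGALS3, galectin-3, ranged from 872 to 2871 CPM in 9 P0 donors, at least 27.4-fold higher than in muscle by pooled level, and was higher than in the other P0 cells in 9 of 9 donors. The chromatin protein HMGA1 was at least 13.9-fold higher (41.5 to 1699 CPM at P0) and was above the other P0 cells in 8 of 9 donors.

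OXT and CXCL14 had the largest bounds, at least 38.1-fold and 38.9-fold, and stood above the other P0 cells in 8 and 9 of 9 donors. For 3 genes the other P0 cells had more. CXCL5, a neutrophil-attracting chemokine, was at least 16.5-fold higher at P0 than in muscle glial cells (482 to 3044 CPM), but the other P0 cells of each donor held 3225 to 7549 CPM, above the glial cells in 9 of 9 donors. The pentraxin PTX3, at least 4.89-fold higher, was likewise below the other P0 cells in 9 of 9 donors, with 2242 CPM in P0 FAPs. The metallothionein MT1A, at least 13.1-fold higher, was above the other P0 cells in 2 of 9 donors. RNA free in the droplets was not measured, and its part in these values was not tested. A related gene with counts at both times, MT2A, rose by a log2FC of 3.55 ± 0.45 (SE, adjusted p = 3.6e-06), from a median of 327 CPM in muscle to 3301 CPM at P0, and its pooled level in all other P0 cells was 3.57-fold that in glial cells.

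The other large differences were in CCDC80, TUBB6, TNFRSF12A and ENSBTAG00000047265, for which no symbol was given. CCDC80, a matrix-associated protein, had 4 UMIs in muscle and 891 UMIs at P0, a ratio of 21.6 with a counting interval from 8.42 to 79.5. TUBB6, a beta-tubulin, had 1 UMI in muscle and 321 UMIs at P0, a ratio of 31.2 with a counting interval from 5.55 to 1234. TNFRSF12A, the receptor of TWEAK, had 1 UMI and 243 UMIs, a ratio of 23.6 with an interval from 4.19 to 935. UCHL1, a ubiquitin hydrolase abundant in the nervous system, had 3 UMIs in 2 muscle cells and 274 UMIs at P0, a ratio of 8.87 with an interval from 3.00 to 43.3.

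**Figure D5:**
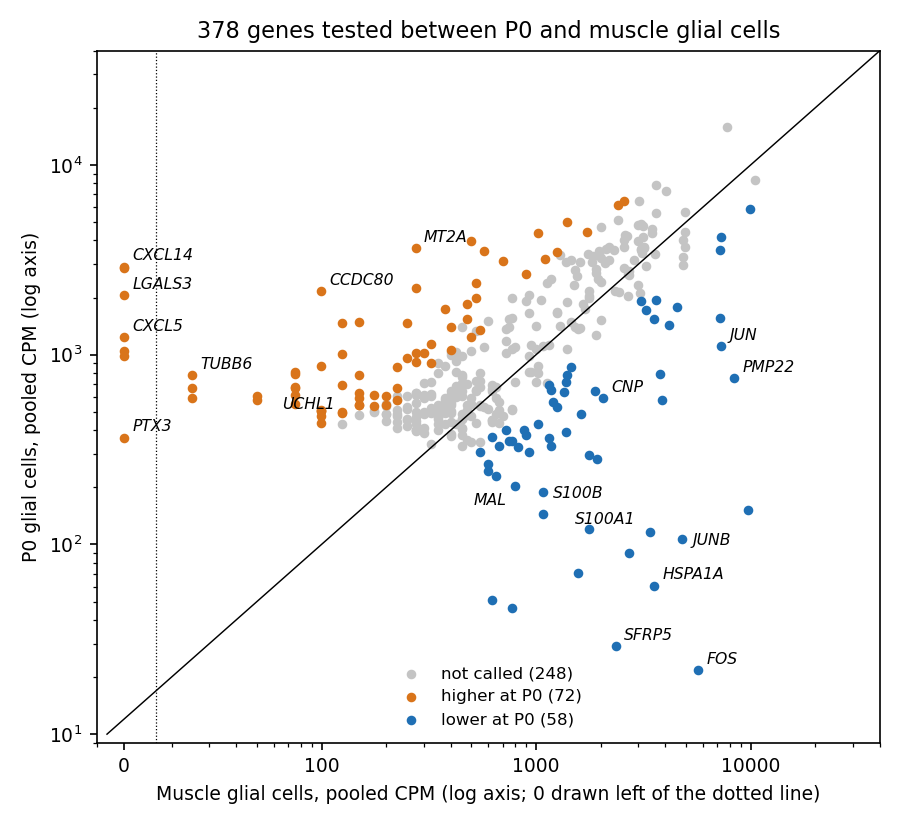
Pooled CPM of the 378 tested genes in P0 glial cells (y, log axis) against muscle glial cells (x, log axis, with genes at 0 UMIs drawn left of the dotted line), coloured by the edgeR call over donors. The 72 genes higher at P0 (orange) include 7 at 0 in muscle, and PMP22, SFRP5, S100B, FOS and JUN are among the 58 lower genes (blue).

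To ask which changes exceeded those of another cell type over the same step into culture, the change in glial cells was set against that in FAPs of the same donors in 1 model. The change was more positive in glial cells for 44 genes (11.6%) and more negative for 36 genes (9.52%) of 378. Of these 36, 5 passed the filter through muscle alone, S100B, SFRP5, TSC22D4 and EGFL8 among them, and are given without a p. S100B went from 1074 to 189 CPM in glial cells and from 6.99 to 14.8 CPM in FAPs (difference of log2FC −3.84 ± 0.58 (SE)). With VECs in place of FAPs the difference for S100B was 1.82, in the opposite direction, and the level of S100B in VECs was 527 CPM in muscle and 32.8 CPM at P0. SFRP5, S100A1, TSC22D4, CTNNAL1, CNP and JUNB were called in the same direction against FAPs, although S100A1 and JUNB passed the filter almost through muscle alone. With VECs in place of FAPs, S100A1 had a difference of −0.29 (adjusted p = 0.882) and CTNNAL1 one of 1.36 in the opposite direction (adjusted p = 0.049), and H2AZ1 and MT1E lost the call. CTNNAL1, CNP and JUNB were not called without the filter on low counts. EGFL8 was called by a small margin. It was not called with donor as a block, with donors of at least 2 glial cells, without the filter on low counts, without cells rich in FAP markers, or without donor 1, 2, 4, 5, 6 or 8.

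HMGCS1 had a difference of −4.45 ± 0.97 (SE, adjusted p = 0.00068), and its pooled level in FAPs was 20.2-fold higher at P0 than in muscle. HMGCS1 was not among the genes tested in the fits without donor 5, 8, 9 or 10. The histone H2AZ1 went from 139 to 1426 CPM in FAPs and from 400 to 647 CPM in glial cells. The metallothionein MT1E was called by a small margin (difference −4.78, adjusted p = 0.0421). It was not called with donors of at least 2 glial cells, without the filter on low counts, without cells rich in FAP markers, with VECs, or without donor 1, 4, 6 or 8, where the difference ran from −2.76 to −4.73. PMP22, FOS and JUN, by contrast, were not called in this comparison, with differences of −0.57, −1.55 and 0.69. Their pooled levels in FAPs were also lower at P0, 7.45-fold for PMP22, 81.1-fold for FOS and 9.28-fold for JUN, and a p that misses the threshold does not show that the changes were equal. For DCN the difference was 0.21 (adjusted p = 0.874).

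Genes whose change was more positive in glial cells included several with a lower level in P0 than in muscle FAPs. CXCL14 went from 163 to 13.97 CPM in FAPs while it went from 0 UMIs to 2914 CPM in glial cells, and APOD went from 749 to 9.46 CPM in FAPs and from 1024 to 429 CPM in glial cells (difference 5.60 ± 1.09 (SE), adjusted p = 0.00026). The muscle level of APOD in glial cells was 492.6 CPM without the single cell of donor 7, which held 26 of the 41 UMIs, and the donor medians were 347 CPM in muscle and 539 CPM at P0. Without donor 7 the difference for APOD was 6.79 (adjusted p = 0.00027). CCDC80 was 3.86-fold lower at P0 in FAPs and went from 99.9 CPM, which rests on 4 UMIs, to 2160 CPM in glial cells. LGALS3 stood at 588 and 627 CPM in muscle and P0 FAPs, and went from 0 UMIs to 2053 CPM in glial cells. CXCL14, LGALS3 and CCDC80 are counted among the 44 but, with 6 others of the 44, passed the filter through P0 alone, so no p is given for them. MAL was among these genes although it fell in glial cells, because its low level in FAPs, 13.5 CPM in muscle, went to 0.09 CPM at P0. The annexins ANXA2 and ANXA5, CST3, PNP and RCN1 completed the 10 largest differences. With VECs in place of FAPs, CXCL14, APOD, PNP, CST3 and RCN1 lost the call, and the difference for CST3 turned to −1.42.

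Finally, cells with other labels were searched for SOX10. A SOX10 UMI was found in 0 of 4383 other muscle cells and in 6 of 9543 other P0 cells, of which 5 were labelled FAPs and 1 VECs. At passage 2, 6 of 8966 cells had a SOX10 UMI, 3 labelled SCs and 3 labelled FAPs. At passages 5 and 8, 0 of 10405 and 0 of 2772 cells had one. Part of the cultures from passage 2 on were sorted SCs or FAPs, so these counts do not show how unsorted glial cells fared. NGFR was seen in 40 other muscle cells, 25 of them FAPs, in 23 other P0 cells and in 13 cells at passage 2, and in 0 cells at passages 5 and 8.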

How the data were processed

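Single-cell RNA-seq libraries (10x Genomics 3′) were made by the authors, 1 per timepoint, and donors were assigned by genotype. Per the labels and the submitters' processing notes, reads were aligned and counted with Cell Ranger 6.0.1 on ARS-UCD1.2. The deposited values were raw UMI counts per gene and cell, unnormalized, with a deposited table of cell labels, donors and cell cycle phases, and the authors kept cells within 3 median absolute deviations for genes, counts and mitochondrial share. The percent of mitochondrial UMIs per cell was deposited by the authors, as was a score for each of the S and G2M phases, from which no result was drawn. The muscle and P0 counts of all 21880 genes were used here. Donor and timepoint came from the labels, and doublets and ambiguous barcodes called by the authors stayed out of all comparisons.

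Counts were pooled over glial cells and scaled to CPM, or summed per donor and fitted with edgeR 4.0.16 (quasi-likelihood F test, TMM scaling, Benjamini-Hochberg adjustment) in R 4.3.3, calling a log2FC beyond 1 in either direction at a false discovery rate under 0.05 (the study's condition on the share of cells expressing a gene was not applied). The filter on low counts was set on the glial sums alone in both fits, because filtering on FAPs too gave false calls in simulated data. Simulated data held 378 genes, the number left by the filter. For P0 against muscle, 80, 55 and 65 of them were changed by a log2FC of 1.5, 2 and 3. That fit recovered 90.9% of those changed by 2, with 1 false call. Against FAPs, 82, 62 and 56 were changed by the same amounts. This fit recovered 88.7% of those changed by 2, with 3 false calls. False calls among genes that passed the filter through 1 group alone were not tested. Shares and per-cell measures were compared by exact sign-flip or permutation tests over donors in scipy 1.17.1. Intervals were exact at 95%, and the limit of a gene at 0 was 3 UMIs over the group. Ratios given as "at least" set the measured level against that limit and leave out the counting error of the measured level. Pooled UMIs per group were 40040 and 412491, which limits muscle values most.

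The same animals gave the muscle and P0 cells, so a fit with donor as a block was run as well. Deviations of the same donor correlated between −0.079 and 0.133 over 6 donors. Other alternatives were DESeq2 1.42.0, no filter, thinning, VECs in place of FAPs, library-size scaling, leaving out cells with many FAP marker UMIs and leaving out each donor. Genes were named by a rule of size: the 25 largest excesses and 10 largest falls at P0, and the 10 largest called changes in each direction of each fit, with the best-expressed members of each list. NGFR, CHL1 and OXT at P0 and the genes that marked muscle glial cells were chosen after their values were seen. Members and gene lists were chosen with earlier results of these data known. Of 270 list genes, 2 were not analysed here. Results on some genes, and on a marker score that included them, are not reported here. No sequences were used here.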

Additional observations from a re-analysis of the deposited data

Results flagged for a closer look

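Of 107 sets of donor values, 23 held a donor that stood apart from the others of its group by Dixon's criterion. Chance alone meets it in about 1 in 20 sets of continuous values, a rate that does not hold for sparse counts, and in 9 of the 23 sets all other donors were at 0. At P0, donor 6 was the one apart for ACTA2, CCN2, SERPINF1 and TSC22D4 (143 CPM each), MAL and GATM (430 CPM each, 429.984 before rounding), S100A1 (573 CPM) and DDAH2 (860 CPM, 859.968 before rounding). Donor 6 had 2 glial cells at P0, so 143 CPM was 1 UMI. Donor 5, also with 2 cells, stood apart for CLDN5 (83.0 CPM), MBP (208 CPM) and JUNB (623 CPM), donor 8 for CXCL5 (3044 CPM) and donor 10 for EGFL8 (292 CPM).

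In muscle, donor 8 stood apart for CCN2, IL6 and TNFRSF12A (165 CPM each) and for CILK1 and NAV2 (330 CPM each, 329.652 before rounding). Donor 4 stood apart for ENSBTAG00000047265 (113 CPM) and HSPA1A (9931 CPM), donor 1 for FAM162A (129 CPM), donor 6 for RENBP (324 CPM) and donor 7 for TUBB6 (104 CPM). The cause of these values was not tested.

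The change from muscle to P0 differed between glial cells and FAPs for 44 genes that were higher and 36 that were lower in glial cells, by the interaction term in edgeR. The differences of log2FC were −6.40 for SFRP5, −4.78 for MT1E, −4.45 for HMGCS1, −4.17 for S100A1, −3.85 for EGFL8, −3.84 for S100B, −3.80 for TSC22D4, −2.93 for CTNNAL1, −2.69 for H2AZ1 and −2.43 for JUNB. They were 6.15 for CCDC80, 5.78 for MAL, 5.60 for APOD, 2.87 for PNP, 2.85 for ANXA5, 2.69 for CST3, 2.32 for RCN1 and 2.24 for ANXA2. CCDC80 had 4 UMIs in muscle glial cells, and it, SFRP5, EGFL8, S100B and TSC22D4 passed the filter through 1 group alone, so their values are descriptions. MAL, S100A1 and JUNB passed almost through muscle alone, and their values are read as descriptions too. For CXCL14 and LGALS3, which had 0 UMIs in muscle glial cells, the adjusted p was 8.9e-05 and 1.0e-05, but both passed the filter through P0 alone, so these are not read as tests.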

How the results depend on the processing

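The difference in glial share was 0.137 to 0.277 points when each donor was left out, and 2.94 points among cells that were neither FAPs nor SCs. The difference of calves and adults was −0.219 to 0.0345 points without each donor, and its sign turned without donor 9. Thinned to 4000 UMIs per cell without the shallower cells, 8 genes met the P0 rule, all 8 of them also without thinning, and 34 to 48 did without each donor. For P0 against muscle, 72 genes higher became 904 with no filter (of 11067), 0 when thinned (of 6 tested, with 4 at an unadjusted p below 0.05), 117 with library size only and 40 to 73 without each donor. The 58 lower genes became 204 with no filter, 91 with donors of at least 2 glial cells (of 862), 1 when thinned and 38 to 62 without each donor, with 233 genes tested without donor 9 or 10. Against FAPs, the 44 higher genes became 1040 with no filter (of 16976), 102 with donors of at least 2 glial cells, 2 when thinned, 90 without cells above 0.5% FAP marker UMIs and 21 to 69 without each donor. The 36 lower genes became 1 when thinned, 17 with VECs in place of FAPs and 20 to 39 without each donor. The sign turned for DCN (2.61 with donors of at least 2 glial cells, 0.77 without cells above 0.5% FAP marker UMIs), HSPB1 (0.24 with no filter) and, with VECs in place of FAPs, S100B (1.82), CTNNAL1 (1.36), CST3 (−1.42) and COL4A1 (−1.15). With donor as a replicate block, 62 genes were higher and 49 lower for P0 against muscle, and 42 and 36 against FAPs, and among named genes DCN, EGFL8 and COL4A1 lost a call. DESeq2 gave 83 and 53, and 41 and 47. The cause of these changes was not tested, and the 2 alternatives on scaling and on FAP marker UMIs were chosen after seeing the data. Of the values for named genes, 360 of P0 against muscle and 284 against FAPs kept direction and side of the threshold, and 36 and 29 lost the call. The 40040 UMIs of muscle glial cells limit all muscle values.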
